A study of Mus musculus with 2 samples.

Results

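The cytochrome P450 genes other than the aryl hydrocarbon receptor targets Cyp1a1 and Cyp1b1 were compared in mouse lung after PM2.5 exposure and without it. Members were the protein-coding genes of GENCODE release M21 whose symbol starts with Cyp followed by a digit, which gave 98 of the 37315 gene identifiers in the count files. Messenger RNA of C57BL/6 mice was sequenced in 1 library from lung exposed to particulate matter 2.5 (PM2.5), the fine fraction of airborne particles, and in 1 library from control lung. The labels name no genotype other than this inbred strain, and no sex, age, dose, route of exposure or number of animals behind a library. Each title holds a 12 followed by the letter W, whose meaning is not given. The PM2.5 library held 57435027 counts and the control library 62788045. With 1 library a group, the ratios below compare these libraries and have no replicate check. Each ratio carries an exact 95% interval (Clopper-Pearson) that covers counting error alone, because copies of a molecule made by PCR and differences between animals do not enter it.

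P450s are haem enzymes that insert an oxygen atom into their substrate, with electrons passed on by P450 reductase in the endoplasmic reticulum or by ferredoxin in mitochondria. Families 1 to 3 act mainly on foreign compounds, family 4 on fatty acids and eicosanoids, and the others mostly on sterols, steroid hormones, vitamin D and retinoic acid. In mouse lung, the club cells of the airways are rich in P450s, and these can turn inhaled or blood-borne compounds such as naphthalene into reactive products. Cyp1a2 and Cyp2s1 are also known as targets of the aryl hydrocarbon receptor and are members by the rule.

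Lung held few of the P450s at a high level. Of the 98 members, 37 had no count in either library, 32 had counts but a mean below 1 CPM, the count per 1000000 counts of the scaled library, and 29 had a mean of at least 1 CPM and are called measured. A count of 0 allows a level of up to 3 counts, which is 0.0482 CPM in the PM2.5 library and 0.0517 CPM in the control library. The share measured was 29.6%, against 65.0% of all 21208 protein-coding genes of the files. All of the 29 except Cyp2r1 and Cyp2u1 reached 1 CPM in both libraries: Cyp2r1 entered through the PM2.5 library and Cyp2u1 through the control library. Summed over the family, members took 230400 counts in the PM2.5 library, 0.401% of its total, and 176833 in the control library, 0.282%. The sum was 3704 CPM with PM2.5 and 3050 CPM in the control, a ratio of 1.21 (1.21 to 1.22). Without Cyp2f2, which alone made 56.9% of the PM2.5 sum and 50.4% of the control sum, the ratio was 1.055 (1.045 to 1.065).

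Among the measured members, 10 were higher and 2 lower in the PM2.5 library, and 17 met neither size. Higher and lower mean a ratio of at least 1.5 in that direction whose counting interval leaves out 1. The same rule held for 14.9% of all 14518 genes measured on the higher side and 19.1% on the lower side, against 34.5% and 6.90% of the members. Among protein-coding genes alone it held for 13.3% and 19.6%. Among 3132 protein-coding genes with an exon length between the members' quartiles, 2158 to 3605 bases, it held for 13.8% and 14.2%, a comparison added after seeing the data. At 2-fold, 4 members were higher, 13.8%, and 1 was lower, 3.45%, beside 7.25% and 6.04% of all genes measured. With the whole interval beyond 1.5-fold, 5 members were higher and 1 lower, beside 10.2% and 14.4% of all genes measured. The median log2 ratio of the members was 0.03, with quartiles of -0.20 and 0.63, against a median of -0.09 with quartiles of -0.48 and 0.33 for all genes measured. The upper quartiles and also the lower quartiles stood further apart than the medians. Such shares describe 2 libraries, and the variation between animals was not measured.

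**Figure D1:**
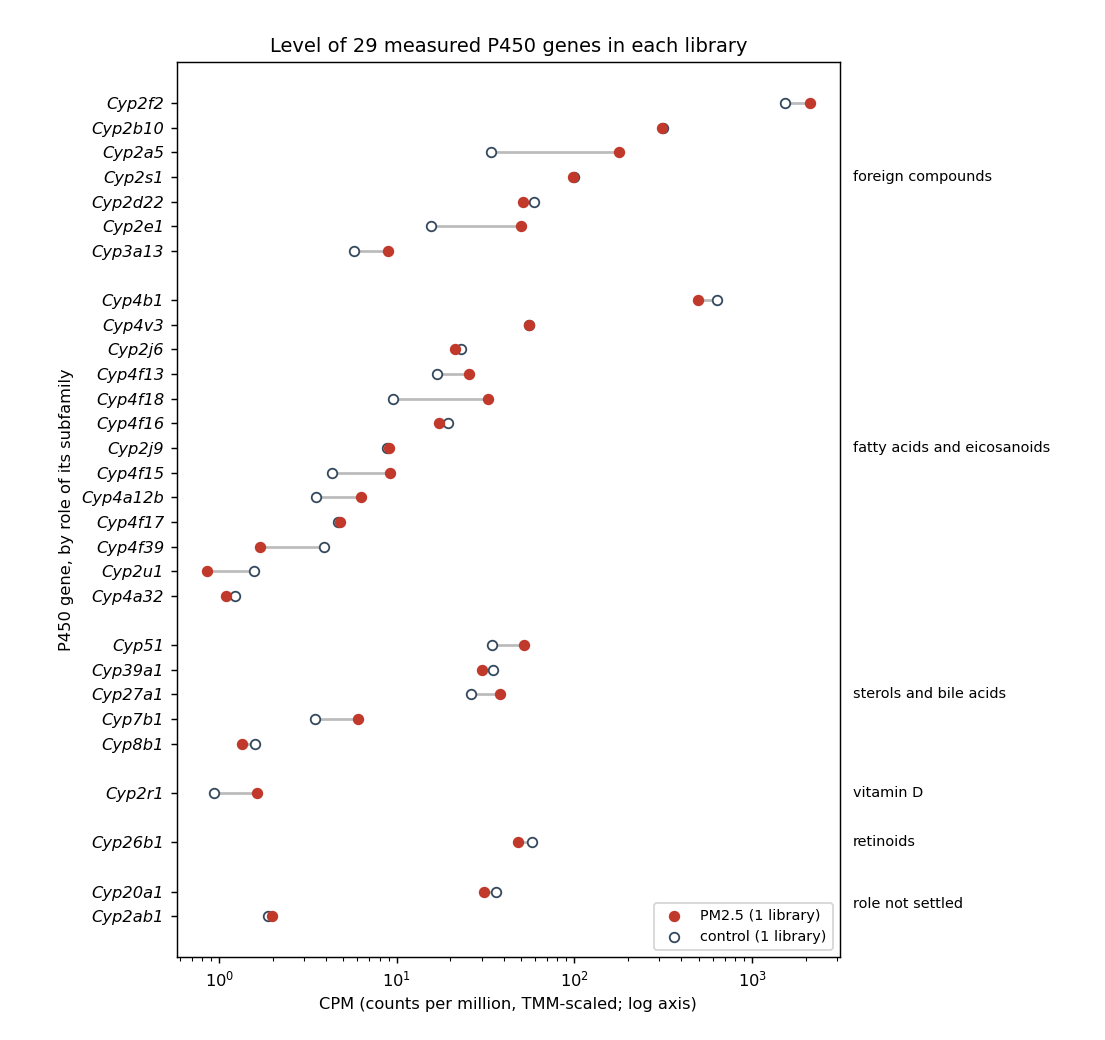
CPM of each of the 29 measured P450 genes in the PM2.5 library (filled) and the control library (open), on a log axis, grouped by the role of the subfamily, with 1 library a group. Cyp2f2 stood highest at 2109 and 1539 CPM, and the longest lines join the points of Cyp2a5, Cyp4f18 and Cyp2e1.

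**Figure D2:**
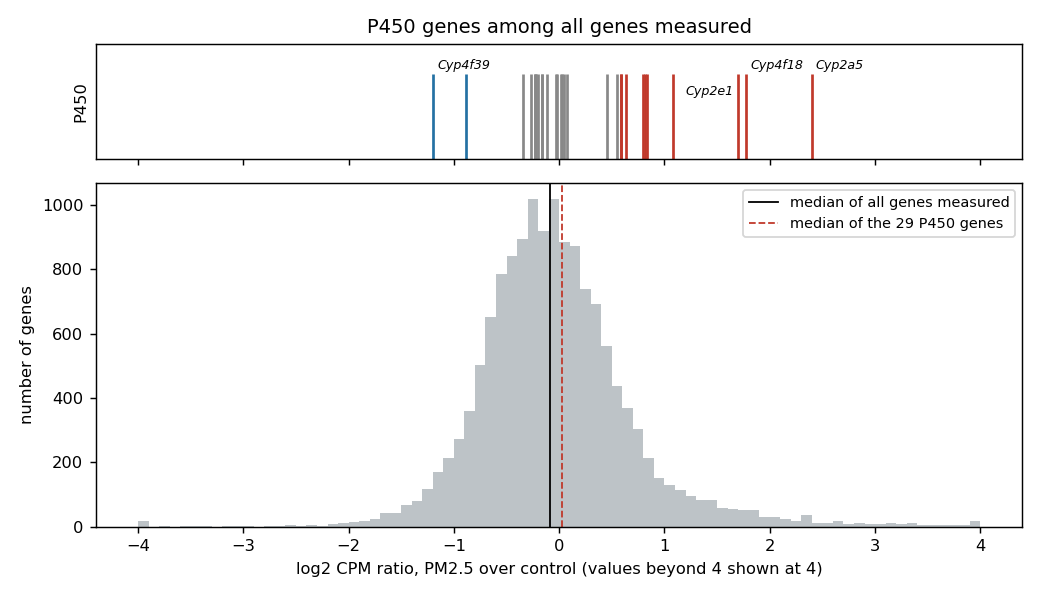
Top: log2 CPM ratio, PM2.5 over control, of the 29 measured P450 genes (red at least 1.5-fold higher, blue at least 1.5-fold lower, grey neither). Bottom: the number of genes at each log2 ratio among the genes measured, with the median of all genes measured (-0.09, solid) and of the P450 genes (0.03, dashed).

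Roles were assigned by subfamily, and 46 P450s fell in subfamilies that act mainly on foreign compounds. Of these, 7 were measured: Cyp2a5, Cyp2e1 and Cyp3a13 were higher and the other 4 met neither size. Among all genes measured, 14.9% were higher and 19.1% lower. Cyp2a5, the mouse coumarin and nicotine hydroxylase (ENSMUSG00000005547, GRCm38 chromosome 7, 26835305 to 26843548, plus strand), was counted 11029 times in the PM2.5 library and 1952 times in the control library. That is 177 and 33.7 CPM, a 5.27-fold higher level (5.02 to 5.53) and the largest ratio among the 29 measured members. Per kilobase of exon, its level was 85.5 CPM with PM2.5 and 16.2 CPM in the control, ranks 4 and 5 among the members. For comparison, Cyp1a1, outside the members, had 22711 and 2033 counts, a ratio of 10.4. In bulk tissue, more cells of a type and more RNA per cell cannot be told apart, here and in all results below. Of 8 club cell markers, 4 were higher, 4 met neither size and none was at 0. Their ratios ran from 0.932 for Muc5b to 7.56 for Bpifa1, with 3.51 for Scgb3a1, 1.74 for Scgb3a2 and 1.54 for Scgb1a1. Their summed level was 35247 CPM with PM2.5 and 22572 CPM in the control, a ratio of 1.56 (1.56 to 1.56), and Scgb1a1 made 84.8% and 85.9% of it. Without Scgb1a1, left out after seeing the data, the sum had a ratio of 1.68 (1.67 to 1.68). Their part in the Cyp2a5 result was not tested. Of the olfactory and nasal markers, Obp1a, Obp2a and Bpifb9a were at 0 in both libraries, and Omp had 29 and 1 counts.

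The values of Cyp2a5 were set beside those of its nearest copy, Cyp2a4, a steroid hydroxylase known from mouse liver and kidney. Cyp2a4 had 3 counts in the PM2.5 library and 2 in the control library, although its coding sequence is 98.5% identical, with 23 of 1485 bases different. The stretch of coding bases 596 to 655 holds 4 of these differences, in capitals, and is shown because it is the densest run of 60 bases by which a read tells the copies apart.
Cyp2a5: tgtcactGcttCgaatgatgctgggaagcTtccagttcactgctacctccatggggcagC
Cyp2a4: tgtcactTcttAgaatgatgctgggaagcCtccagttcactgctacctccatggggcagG
Of the 125-base windows of Cyp2a5 transcripts, the length of the reads, 6.99% also occurred in a transcript of another gene. The promoters, 300 bases from 250 before to 50 after the start site in RefSeq on GRCm38.p6, were alike too: 294 of 299 aligned bases were identical, 98.3%. They are shown because copies this close in sequence differed so far in counts. Capitals mark bases with no match in the other window. The first letter of Cyp2a4 and the capital G before the last letter of Cyp2a5 faced a gap in the alignment. No base of the other copy was compared with them.
Cyp2a5 (chr7:26835089-26835388, plus strand): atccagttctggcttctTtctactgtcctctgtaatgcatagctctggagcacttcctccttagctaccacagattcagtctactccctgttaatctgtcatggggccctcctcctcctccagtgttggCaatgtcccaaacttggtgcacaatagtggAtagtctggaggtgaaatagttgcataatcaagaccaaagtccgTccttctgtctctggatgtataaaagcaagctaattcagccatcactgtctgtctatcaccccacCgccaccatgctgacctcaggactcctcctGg
Cyp2a4 (chr7:26306942-26307241, plus strand): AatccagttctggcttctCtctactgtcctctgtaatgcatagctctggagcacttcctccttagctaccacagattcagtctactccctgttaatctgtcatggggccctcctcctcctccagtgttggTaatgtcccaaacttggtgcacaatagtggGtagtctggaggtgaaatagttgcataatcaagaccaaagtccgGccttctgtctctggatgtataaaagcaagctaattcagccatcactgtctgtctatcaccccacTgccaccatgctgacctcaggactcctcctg
The gap between 11029 and 3 counts with PM2.5 therefore stood beside promoter windows that differ at few positions. What else differs around these genes was not analysed here.

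Cyp2e1, the ethanol-oxidising P450 (ENSMUSG00000025479), had 3117 counts with PM2.5 and 898 in the control, or 50.1 and 15.5 CPM, a 3.24-fold higher level (3.003 to 3.488). Per kilobase of exon its level was 23.2 CPM with PM2.5 and 7.18 CPM in the control, ranks 5 and 13 among the members. Fat tissue also expresses Cyp2e1, and the brown and white fat markers were higher as a group, all 8 of them, with a summed level of 555 CPM with PM2.5 and 76.2 CPM in the control, a ratio of 7.29 (7.06 to 7.52). The single ratios ran from 4.58 for Plin1 to 566 for Ucp1, which had 4855 and 8 counts. Car3, at 224 CPM with PM2.5 and 37.3 CPM in the control, was the largest part of the sum. None of these markers was at 0. Their part in the Cyp2e1 result was not tested. Markers of hepatocytes, the classical site of Cyp2e1, were rare: none of the 8 hepatocyte markers was measured, their sum was 2.60 CPM with PM2.5 and 1.40 CPM in the control, and Fgb and Serpina1c were at 0 in both. Cyp3a13, a member of the drug-oxidising subfamily 3a, had 552 and 332 counts, a ratio of 1.55 (1.35 to 1.78), which became 1.49, under the limit, once the trend of ratios with transcript length was removed.

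The 3 most abundant members, Cyp2f2, Cyp4b1 and Cyp2b10, met neither size. They held 78.7% of the members' counts with PM2.5 and 81.5% in the control. Cyp2f2, the naphthalene-oxidising P450 of club cells (ENSMUSG00000052974, chromosome 7, 27119909 to 27133660, plus strand), reached 131206 counts with PM2.5 and 89202 in the control, or 2109 and 1539 CPM, a ratio of 1.37 (1.36 to 1.38). With library totals its ratio was 1.61 and with the upper quartile 1.51, so that it crossed the limit of 1.5. Its ratio lay within the range of the club cell markers, below the 1.54 of the secretoglobin Scgb1a1 and above the 1.16 of Aldh1a1, the 1.18 of Hp and the 0.932 of Muc5b. Gm15883, a gene on the opposite strand whose exons overlap 13.5% of the Cyp2f2 exon bases, had 1067 and 51 counts, a ratio of 19.5 (14.7 to 26.4). Whether the counting used strand is not given in the sources used here, so reads of the overlap may have been counted for either gene or for none.

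Cyp2b10, the main target of the receptor CAR (Nr1i3) in mouse liver, had 19221 counts with PM2.5 and 18260 in the control, or 309 and 315 CPM. Its ratio was 0.981 (0.961 to 1.001). Cyp2s1, a P450 of epithelia outside the liver, had 6103 and 5787 counts, or 98.1 and 99.8 CPM, and a ratio of 0.983 (0.948 to 1.02). Cyp2b10 and Cyp2s1 thus had intervals that include 1 under the main scaling. With library totals their ratios were 1.151 and 1.153, and with the upper quartile 1.079 and 1.081. Cyp2d22, of the drug-oxidising subfamily 2d, had 3202 and 3439 counts, or 51.5 and 59.3 CPM, a ratio of 0.868 (0.827 to 0.911). With library totals the Cyp2d22 ratio was 1.02.

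The P450s of subfamilies 2a, 2b, 2f, 2g, 2s and 2t lie together on chromosome 7, where 13 members follow one another. Along this row, Cyp2s1, Cyp2b10, Cyp2a5 and Cyp2f2 had between 1952 and 131206 counts, while the other 9 had between 0 and 71. The ratio of Cyp2a5 was 5.27, and those of the other 3 abundant genes ran from 0.981 to 1.37. Among the rare ones, Cyp2t4 had 71 and 30 counts, a ratio of 2.21 (1.42 to 3.50), Cyp2b19, a P450 known from mouse skin, had 41 and 15, a ratio of 2.55 (1.38 to 4.95), and Cyp2g1, known from the olfactory mucosa, had 21 and 5, a ratio of 3.91 (1.44 to 13.3). The liver gene Cyp2a12 had 8 and 9 counts. Cyp2a22 was at 0 in both libraries.

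**Figure D3:**
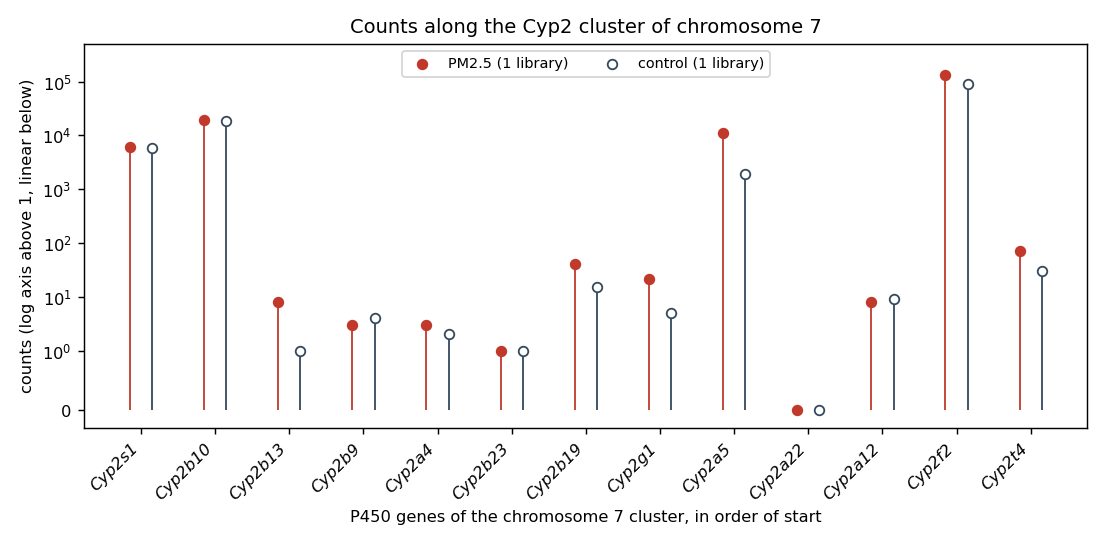
Counts of the 13 P450 genes of the chromosome 7 cluster, in order of start, in the PM2.5 library (filled, left) and the control library (open, right), on an axis that is logarithmic above 1. Cyp2a5, with 11029 and 1952 counts, lies between Cyp2g1, with 21 and 5, and Cyp2a22, with 0 in both.

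Of the P450s of fatty acids and eicosanoids, 13 of 29 members were measured, with 4 higher, 2 lower and 7 that met neither size, beside 14.9% higher and 19.1% lower among all genes measured. The higher ones were in subfamilies 4f and 4a. Cyp4f18, which hydroxylates leukotriene B4 in mouse neutrophils (ENSMUSG00000003484, chromosome 8, 71988482 to 72009626, minus strand), reached 2017 counts with PM2.5 and 549 in the control. That is 32.4 and 9.47 CPM, a 3.42-fold higher level (3.11 to 3.77). Neutrophil markers, a list added after seeing the data, were higher in 8 of 9 genes with none lower and none at 0. Their summed level was 1743 CPM with PM2.5 and 577 CPM in the control, a ratio of 3.02 (2.99 to 3.06). Their part in the Cyp4f18 result was not tested. Zfp961, on the opposite strand, overlaps 9.76% of the Cyp4f18 exon bases and had 1329 and 489 counts, a ratio of 2.53.

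The other genes of subfamily 4f, whose enzymes hydroxylate long fatty acids and leukotrienes, differed among themselves. Cyp4f15 had 566 counts with PM2.5 and 249 in the control, a ratio of 2.12 (1.82 to 2.47), and Cyp4f13 1582 and 980 counts, a ratio of 1.505 (1.389 to 1.631), at the size limit. Cyp4f16 had 1073 and 1118 counts and Cyp4f17 296 and 270, with ratios of 0.895 (0.822 to 0.974) and 1.02 (0.864 to 1.21). Cyp4f39, which makes the very long hydroxy fatty acids of the skin barrier in mice, went the other way, with 106 and 226 counts, or 1.70 and 3.90 CPM, and was 2.29-fold lower (1.81 to 2.91). Below 1 CPM, Cyp4f40 had 11 counts with PM2.5 and none in the control. Set against a floor of 3 counts in the control library, it was 3.42-fold higher. The counting interval of its ratio begins at 2.34. All 9 members of the subfamily had counts, and their sum was 5658 with PM2.5 and 3396 in the control, a ratio of 1.55 (1.49 to 1.62). Without Cyp4f18, left out after seeing the data, the sum was 3641 and 2847 counts, a ratio of 1.19 (1.13 to 1.25), under the size limit.

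In subfamily 4a, known in mouse liver for targets of the fatty acid receptor PPAR alpha, Cyp4a12b had 391 counts with PM2.5 and 204 in the control, a ratio of 1.786 (1.504 to 2.127). Its near copy Cyp4a12a was at 0 in both, and 31.1% of the Cyp4a12b windows occur in another gene, so the separate values are uncertain. Cyp4a32, with 11.8% of its windows shared, had 68 and 71 counts, with a ratio of 0.893 (0.631 to 1.26). The sum of subfamily 4a had a ratio of 1.57 (1.35 to 1.83). Cyp4a14, a strong PPAR alpha target in mouse liver, had no count, and Cyp4a10 had 2 and 1.

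Cyp4b1, which activates the lung toxin ipomeanol, had 31004 counts with PM2.5 and 36587 in the control, or 498 and 631 CPM, a ratio of 0.790 (0.778 to 0.802). Cyp4v3, the mouse gene for a fatty acid hydroxylase of lysosomes and endoplasmic reticulum, had 3468 and 3201 counts, or 55.8 and 55.2 CPM, and a ratio of 1.01 (0.962 to 1.06). Of the arachidonic acid epoxygenases of subfamily 2j, Cyp2j6 had 1318 and 1330 counts, or 21.2 and 22.9 CPM, a ratio of 0.924 (0.855 to 0.998), and Cyp2j9 had 562 and 507 counts, a ratio of 1.03 (0.915 to 1.17). Both stayed near equality. Cyp2u1, a fatty acid hydroxylase, had 53 and 91 counts, or 0.852 and 1.57 CPM, and was 1.84-fold lower (1.30 to 2.64). On the opposite strand, 4930534D22Rik overlaps 10.45% of the Cyp2u1 exon bases, and 8.12% of the Cyp2u1 windows occur in it. Thromboxane synthase, Tbxas1, and prostacyclin synthase, Ptgis, are P450s without the prefix in their symbols and not members: their ratios were 1.28 and 0.919.

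**Figure D4:**
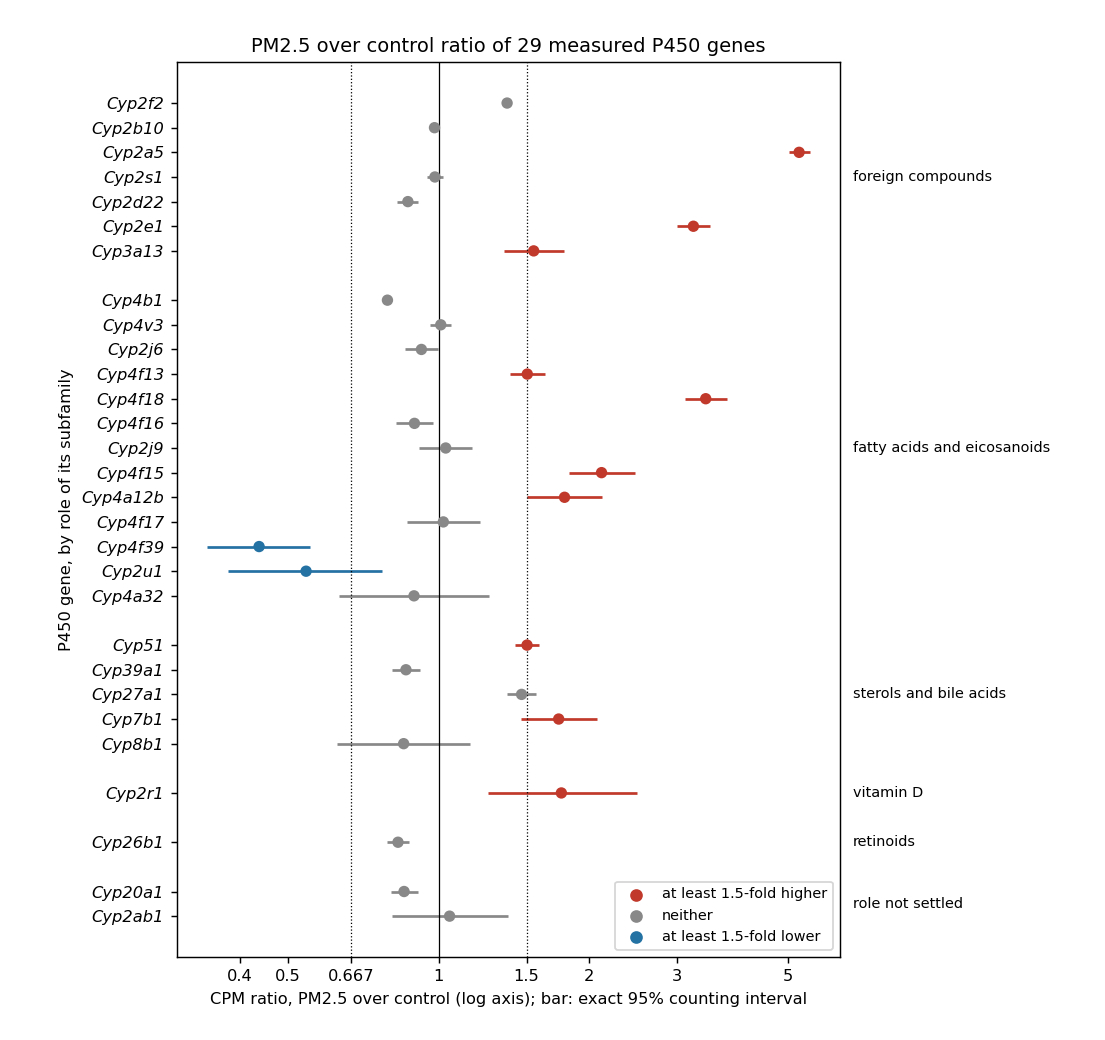
CPM ratio, PM2.5 over control, on a log axis for each of the 29 measured P450 genes, with exact 95% counting intervals (bars), grouped by the role of the subfamily. Dotted lines mark 1.5-fold in each direction: 10 genes (red) lie at or beyond it on the higher side and 2 (blue), Cyp4f39 and Cyp2u1, on the lower side.

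Of the P450s of sterols and bile acids, Cyp51 and Cyp7b1 were higher and 3 measured genes met neither size. Among all genes measured, 14.9% were higher and 19.1% lower. Cyp51, the lanosterol demethylase of cholesterol synthesis, had 3228 counts with PM2.5 and 2002 in the control, or 51.9 and 34.5 CPM. Its ratio of 1.503 (1.42 to 1.59) stood at the limit and was 1.49 with DESeq2 size factors. Cyp7b1, which hydroxylates oxysterols, had 375 and 201 counts, or 6.03 and 3.47 CPM, a ratio of 1.74 (1.46 to 2.07). Cyp27a1, the mitochondrial sterol hydroxylase of macrophages and liver, had 2368 and 1506 counts, or 38.07 and 25.98 CPM. Its ratio of 1.47 (1.37 to 1.56) was just under the limit, and with library totals it was 1.72. Alveolar macrophage markers had a summed level of 694 CPM with PM2.5 and 676 CPM in the control, with 1 gene higher and 1 lower of 7. Chil3 made most of this sum, with 475 and 415 CPM. The single ratios ran from 0.616 for Mrc1 to 3.57 for Marco. Their part in the Cyp27a1 value was not tested. Cyp39a1, an oxysterol hydroxylase, had 1867 and 2023 counts, or 30.0 and 34.9 CPM, a ratio of 0.860 (0.807 to 0.916). The bile acid enzyme gene Cyp8b1 had 84 and 92 counts, a ratio of 0.851 (0.625 to 1.16), and Cyp7a1, the first enzyme of bile acid synthesis in liver, was at 0. Below 1 CPM, Cyp46a1, the cholesterol hydroxylase of neurons, had 67 and 6 counts, a ratio of 10.4 (4.54 to 29.4).

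For steroid hormones no gene was measured. Cyp11a1, the side chain cleavage enzyme of mitochondria, had 46 counts with PM2.5 and 5 in the control, a ratio of 8.57 (3.42 to 27.7). Cyp11b1, Cyp11b2 and Cyp21a1 were at 0 in both libraries, as was Nr5a1, the regulator of steroid-producing tissue. Cyp17a1 had 5 and 4 counts and the aromatase gene Cyp19a1 1 and 0. Of the 6 adrenal markers only Star was measured, with 481 and 206 counts, a ratio of 2.18. Akr1b7 had 50 and 58 counts, a ratio of 0.804 (0.539 to 1.19), Mc2r 1 and 2, and Hsd3b1 4 and 0. The sum of the list was 8.62 CPM with PM2.5 and 4.59 CPM in the control. The part of these markers in the Cyp11a1 value was not tested.

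For vitamin D, Cyp2r1, which makes the circulating form, had 102 counts with PM2.5 and 54 in the control, or 1.64 and 0.931 CPM, a ratio of 1.76 (1.25 to 2.50). Cyp27b1, the activating enzyme, had 15 and 1 counts, a ratio of 14.0 with a wide interval (2.15 to 589), and the inactivating Cyp24a1 had 1 and 0. Of the retinoic acid hydroxylases, Cyp26b1 had 2990 and 3361 counts, or 48.1 and 58.0 CPM, a ratio of 0.829 (0.789 to 0.871), while Cyp26a1 and Cyp26c1 had between 2 and 6 counts. Among the genes whose role is not settled, Cyp20a1 had 1923 and 2102 counts, or 30.9 and 36.3 CPM, a ratio of 0.853 (0.801 to 0.908), and Cyp2ab1 123 and 109, a ratio of 1.05 (0.806 to 1.37).

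Of the 32 members with counts but below 1 CPM, 25 had more counts with PM2.5, 4 more in the control and 3 the same number, so 78.1% had more with PM2.5 and 12.5% more in the control. Among all 9797 genes with a count but below 1 CPM these shares were 72.8% and 21.6%, and among the 3673 protein-coding ones 67.7% and 27.6%, a comparison added after seeing the data. An excess of rare genes with more counts in the PM2.5 library was thus seen across the library. Their counts summed to 406 with PM2.5 and 130 in the control, and 23 of them never reached 10 counts in a library. Besides those given above, Cyp2c23, an arachidonic acid epoxygenase of mouse kidney, had 39 and 27 counts, a ratio of 1.35 (0.803 to 2.29), and Cyp4x1 had 19 and 2, a ratio of 8.85 (2.14 to 78.4). Cyp4x1os, on the opposite strand of Cyp4x1, had 2 and 0 counts. The large liver subfamilies were nearly empty: 13 of 15 members of subfamily 2c and 7 of 9 of 3a were at 0 in both libraries. The copies Cyp3a41a and Cyp3a41b share 85.7% and 85.5% of their windows, so that their values of 0 do not show that no read came from them. Cyp1a2 had 4 and 1 counts.

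Summed by subfamily, 22 of the 39 subfamilies had a mean of at least 1 CPM, with 8 higher and 1 lower. Of all single genes measured, 14.9% were higher and 19.1% lower. The higher sums of 2a, 2e, 2r, 3a, 51 and 7b and the lower sum of 2u each held 1 measured gene. These sums therefore repeat the call of that gene. The sum of 2a had a ratio of 5.242 (4.996 to 5.503), that of 2b 0.983 (0.963 to 1.003), that of 2d 0.869 (0.828 to 0.912), that of 2j 0.958 (0.898 to 1.02) and that of 3a 1.55 (1.35 to 1.78). Sums by role gave 2806 CPM with PM2.5 and 2069 CPM in the control for foreign compounds, a ratio of 1.36 (1.35 to 1.37), and 684 and 783 CPM for fatty acids and eicosanoids, a ratio of 0.874 (0.862 to 0.886). The first was led by Cyp2f2 and the second by Cyp4b1, with 498 and 631 CPM, and neither sum met the size limit. Roles follow the subfamily, so Cyp4b1 was counted with the fatty acid P450s although it also activates ipomeanol. The difference between these 2 sums depends on that placing. The mitochondrial P450s, 6 members, summed to 39.1 and 26.1 CPM, nearly all from Cyp27a1.

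**Figure D5:**
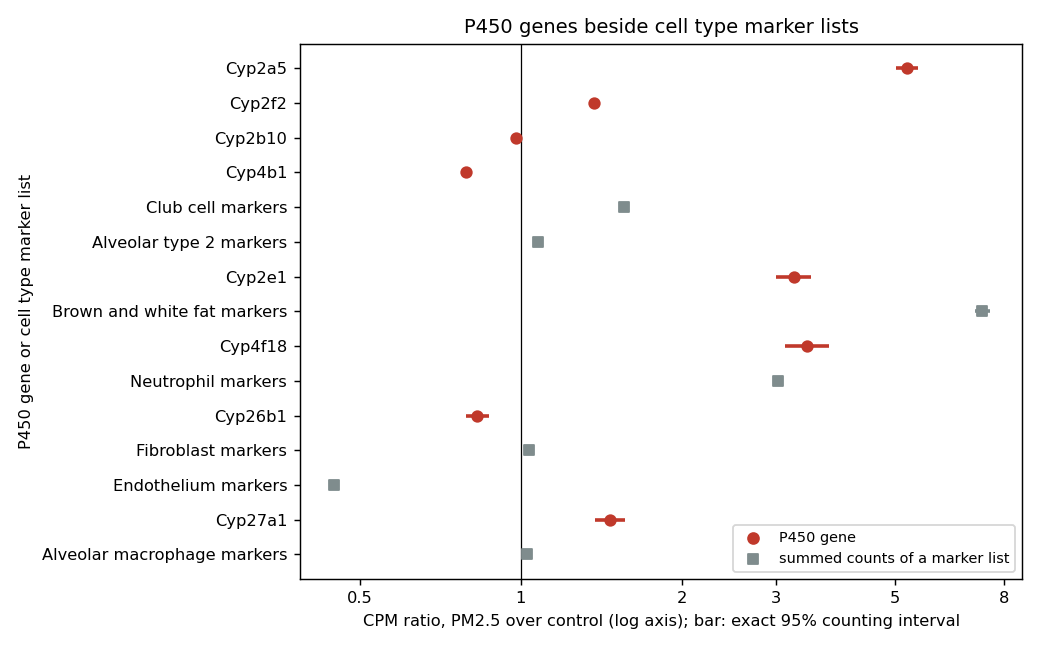
CPM ratio, PM2.5 over control, on a log axis with exact 95% counting intervals, for 8 P450 genes (circles) and for 7 summed marker lists of cell types (squares). A sum can follow 1 abundant gene. Most of the fibroblast sum is Inmt (1.74), and most of the alveolar type 2 sum is Sftpc (1.29). The median log2 ratios of the single genes in these lists were -0.69 and -0.28. Cyp4f18 (3.42) lies near the neutrophil markers (3.02), Cyp2e1 (3.24) below the fat markers (7.29), and Cyp2a5 (5.27) above the sum of the club cell markers (1.56), most of which is Scgb1a1; a single marker of that list, Bpifa1, had 7.56.

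P450s depend on redox partners, and 10 genes of a list of these were found and measured. Of them 1 was higher, none lower and 9 met neither size, beside 14.9% higher and 19.1% lower among all genes measured. The ferredoxin gene Fdx1l was higher, with 914 counts with PM2.5 and 562 in the control. Its ratio of 1.52 (1.36 to 1.69) was close to the limit. P450 reductase, Por, which serves microsomal P450s, had 15155 and 17181 counts, a ratio of 0.822. Cytochrome b5, Cyb5a, had a ratio of 1.41, its reductase Cyb5r3 0.699, Pgrmc1, a haem-binding partner, 0.895 and the mitochondrial ferredoxin Fdx1 1.01. Of 21 receptors and factors that regulate P450 genes, 15 were measured, with 2 higher and 4 lower, beside 14.9% and 19.1% of all genes measured. The pregnane X receptor, Nr1i2, had 124 and 46 counts, a ratio of 2.51, and entered through the PM2.5 library. Pparg, the regulator of fat cells, had a ratio of 1.65. The lower ones were Ahr with a ratio of 0.335 and the dimer partner Rxra with 0.503. The fatty acid receptor Ppard had 0.599 (0.562 to 0.638) and the vitamin D receptor Vdr 0.637 (0.564 to 0.719). Their exon lengths ran from 5462 bases for Rxra to 7514 for Ppard. For these genes the trend with length was not removed and other scalings were not tried. The abundant Srebf2, which drives cholesterol synthesis genes such as Cyp51, had a ratio of 0.681, the dimer partner Arnt 0.719, Nr1h2 0.928 and Rarg 0.788. CAR, Nr1i3, had 11 counts in each library, and Hnf4a, the liver regulator, 0 and 1.

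The core letters bound by the aryl hydrocarbon receptor, GCGTG, were searched on both strands of the promoter windows, as GCGTG or its reverse complement CACGC, and overlapping matches counted each. A window was found for 75 of the 98 members. Of the members' 85 promoters 18.8% held the letters, against 32.4% of all 32851 promoters of the table; among the 23 promoters of measured members the share was 39.1%. They were found for 2 of the 8 higher genes with a window, Cyp51 and Cyp2r1, for 6 of the 14 that met neither size, and for the lower gene Cyp4f39. The windows of Cyp2a5, Cyp2e1 and Cyp4f18 did not hold them. Cyp2b10, at a ratio of 0.981, and Cyp51, at 1.503, each held the letters at 2 places and are shown with these in capitals, to set a gene near equality beside one counted as higher.
Cyp2b10 (chr7:25897408-25897707, plus strand): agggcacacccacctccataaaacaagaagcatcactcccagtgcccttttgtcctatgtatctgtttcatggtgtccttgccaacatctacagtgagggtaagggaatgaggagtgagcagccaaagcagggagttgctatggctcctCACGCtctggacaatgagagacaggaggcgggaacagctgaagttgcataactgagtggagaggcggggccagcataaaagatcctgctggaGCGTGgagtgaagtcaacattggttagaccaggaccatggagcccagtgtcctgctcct
Cyp51 (chr5:4104648-4104947, minus strand): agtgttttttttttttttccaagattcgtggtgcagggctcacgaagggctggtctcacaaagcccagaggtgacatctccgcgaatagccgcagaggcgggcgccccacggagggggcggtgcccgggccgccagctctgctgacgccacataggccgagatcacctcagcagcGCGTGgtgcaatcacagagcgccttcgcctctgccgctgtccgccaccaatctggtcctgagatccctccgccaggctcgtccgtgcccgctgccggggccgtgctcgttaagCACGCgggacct
A match of these letters is a description of the window and not a binding site.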

How the data were processed

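RNA was sequenced from 1 PM2.5 and 1 control mouse lung library, grouped by the exposure in the labels. Per the labels' protocols, polyadenylated RNA was made into stranded libraries and read in pairs of 125 bases. The tools in the submitters' processing notes are HTSeq 0.6.0 and TopHat2 2.1.1, and the build is mm10, with no role. Neither the annotation release nor the strand setting of the counting is stated there. The values the authors deposited are raw counts per Ensembl gene, not normalized.

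Symbols, types and exon lengths came from GENCODE M21 (GRCm38, called mm10), which matched 35533 of 37315 identifiers. Library sizes were scaled by TMM in edgeR 4.0.16 (factors 1.08 for PM2.5 and 0.923 for the control), and CPM ratios with exact 95% Clopper-Pearson intervals were computed with scipy 1.17.1. No p-value was computed, since no model of variation can be fitted to 1 library a group. A gene at 0 was set against a floor of 3 counts. Intervals and floors cover counting error only. The ratio step was tested on simulated counts.

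The members and lists were chosen with earlier results of these data known, and the neutrophil list and the background of similar exon length were added after seeing the data. Every measured member is named, members below 1 CPM where a library had at least 10 counts, and a few others because they are classical or had no count, chosen after their values were seen. Shared 125-base windows were counted over the GENCODE M21 transcripts, and promoters came from RefSeq (GRCm38.p6). Alternatives were TMM without the 100 most abundant genes, upper quartile, library totals and DESeq2 1.42.0 size factors as scalings, filters, size rules, a thinned deeper library, a removed length trend (statsmodels 0.14.6) and summed subfamilies. A comparison of proteins was not made.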

Additional observations from a re-analysis of the deposited data

How the results depend on the processing

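The count of higher members was 8 with DESeq2 size factors, with TMM without the 100 most abundant genes and with the deeper library thinned, 9 with the length trend removed or with a filter on the control library, and 12 with library totals or the upper quartile. With no filter it was 18 of 61 members, and with 10 CPM required 5 of 17. At 2-fold it was 4, and 5 with the interval bound beyond 1.5-fold. The filter on the control library left 28 members, and each scaling 29. Shares of all genes were computed only at 1 CPM with the main scaling. Counts under other scalings or filters therefore have no such share beside them. The count of lower members was 0 at 10 CPM and 1 at 2-fold, with the interval bound beyond 1.5-fold and with subfamilies summed, and 2 elsewhere. The median log2 ratio was 0.48 over the 51 members with counts in both libraries, 0.17 scaled by the upper quartile and 0.26 by library totals, which shift all log2 ratios by 0.14 and 0.23, and -0.02 at 10 CPM. Under each scaling it lay 0.12 above the median of all genes measured. Among the members, calls that depended on scaling or thinning were those of Cyp51, Cyp4f13, Cyp2f2 and Cyp27a1, and Cyp3a13 on the length trend. Calls of redox partners and receptors were not checked in these ways. No paired analysis was possible because each group has 1 library. Variation between animals limits every ratio and was not measured.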
